A study of Homo sapiens with 4 samples.

Results

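The genes described here encode the subunits of the proteasome that carry no protease activity, together with the proteins that assemble, activate or inhibit it. Members were taken by gene symbol: the rows of the deposited table named PSMA, PSMC, PSMD, PSME, PSMF or PSMG with a number, and PSMB1 to PSMB4, with at least 1 TPM in 2 of the 4 samples. TPM is an abundance per transcript length, scaled to the total of its own sample. The rule found 41 members among the 16817 genes that met the same limit. Of the 42 symbols that fit the rule in the GENCODE v44 annotation, PSMA8 was not analysed here. No member lay near the limit, since the lowest value of any member was 6.62 TPM. The samples were 4 RNA libraries of Kasumi-1, a leukemia line established from acute myeloid leukemia (AML) with the RUNX1::RUNX1T1 fusion: 2 labelled NC and 2 labelled sh-ANP32B, in which a short hairpin RNA lowered ANP32B, a nuclear histone chaperone. For NC the labels name no treatment and no hairpin, but the methods name a control hairpin and selection with puromycin, so what NC carried was not settled. Which hairpin was used is not given in the labels, and while the methods say in general that experiments were repeated independently, nothing states that the 2 sequenced replicates of a group were separate cultures, so the p-values below may measure technical spread only.

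The proteasome degrades proteins tagged with ubiquitin. Its barrel-shaped core particle has outer rings of alpha subunits, which gate the entrance, and inner rings of beta subunits, of which only some cut peptide bonds. A regulatory particle caps the barrel: its base holds a ring of ATPases (PSMC1 to PSMC6) that unfold substrates, and its lid removes ubiquitin. Dedicated chaperones build these rings, and alternative caps of the PSME family open the core without the regulatory particle. Proteasome genes are known targets of the transcription factor NFE2L1, also called NRF1, which acts at antioxidant response elements.

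The class of each member was assigned from this knowledge. The core particle was represented by 11 members (the alpha subunits PSMA1 to PSMA7 and the noncatalytic beta subunits PSMB1 to PSMB4), the regulatory particle by 17 (6 base ATPases, 3 other base subunits and 8 lid subunits) and the assembly chaperones by 7 (PSMD5, PSMD9, PSMD10 and PSMG1 to PSMG4). The 4 activators PSME1 to PSME4 and the inhibitor PSMF1 completed the proteasome genes. PSMC3IP fits the symbol rule but encodes a partner of the recombinases of homologous recombination, named for binding PSMC3, and is not a proteasome subunit.

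The promoters of the members were read from RefSeq (GRCh38.p14), in windows from 250 bases before to 50 bases after each start, which existed for 37 members (45 windows). The core letters of the antioxidant response element, TGACNNNGC on either strand, were found in 14 of these windows (31.1%), against 14.7% of the windows of all tested genes and 13.3% of all windows. The MYC E-box CACGTG was found in 3 member windows (6.67%), against 9.80% of the windows of tested genes. These are matches of letters and not measured binding sites. Stretches of 120 bases that hold the element upstream of the start and touch no annotated exon are shown for PSMB3, PSMD3, PSMD12 and PSMG1, on the strand of each gene, with the element in capitals.
PSMB3 (chr17:38752582-38752701, plus strand): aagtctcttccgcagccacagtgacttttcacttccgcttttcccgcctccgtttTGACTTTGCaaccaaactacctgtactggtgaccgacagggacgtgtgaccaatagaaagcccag
PSMD3 (chr17:39980687-39980806, plus strand): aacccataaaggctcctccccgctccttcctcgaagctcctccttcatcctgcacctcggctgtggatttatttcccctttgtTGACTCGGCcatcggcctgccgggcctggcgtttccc
PSMD12 (chr17:67366678-67366797, minus strand): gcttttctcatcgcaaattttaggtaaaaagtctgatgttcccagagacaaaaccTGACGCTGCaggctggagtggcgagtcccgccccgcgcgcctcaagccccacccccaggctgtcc
PSMG1 (chr21:39183570-39183689, minus strand): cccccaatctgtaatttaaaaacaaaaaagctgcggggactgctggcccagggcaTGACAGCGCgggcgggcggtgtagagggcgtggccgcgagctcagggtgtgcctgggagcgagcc
The element lies 104 to 96 bases before the start in PSMB3, 37 to 29 in PSMD3, 165 to 157 in PSMD12 and 183 to 175 in PSMG1.

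ANP32B, which checks the labels, had 383.8 and 392.0 TPM across the NC samples versus 51.8 and 41.2 TPM across those of sh-ANP32B. Its log2 fold change on the log2(TPM + 1) scale, sh-ANP32B minus NC and hereafter log2 change, was -3.04 (SE 0.150, limma adjusted p 0.00516). Of 6 Kasumi-1 markers, RUNX1T1, ANPEP, CD33 and KIT were present and MPO and CD34 were not analysed here. All 4 were higher in sh-ANP32B without overlap, against 33.2% of all genes, and none passed the test. RUNX1T1, with 17.6 and 15.6 TPM against 31.2 and 26.8 TPM, had a log2 change of 0.77 (adjusted p by limma 0.0632) and ANPEP one of 0.61 (adjusted p by limma 0.0581). The erythroid marker EPOR had 5.96 to 8.99 TPM. Transcripts of the mitochondrial genome made up 12.9% and 13.1% of NC and 11.4% and 8.43% of sh-ANP32B. In these bulk samples, fewer cells of a type and less RNA per cell cannot be told apart.

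Most members were lower in sh-ANP32B, by modest amounts, and none passed the test across all genes. The log2 change was negative in 38 of 41 members (92.7%), against 42.1% of all genes tested, and its median was -0.29, against 0.08 over all genes. By limma, 0 of 41 members had an adjusted p under 0.05, against 3.32% of all genes (1.18% lower and 2.14% higher). At an unadjusted p under 0.05, 18 members (43.9%) were lower, against 8.72% of all genes, and 1 was higher, against 15.0%. Both sh-ANP32B samples lay below both NC samples in 27 members (65.9%), against 21.4% of all genes, and above them in 2, against 33.2%. The genes of a complex share much of their regulation and are not independent, so no p is given for these counts. An exact permutation test of single genes was not run, because the lowest two-sided p it allows with 2 samples in each group is 0.333.

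Summed over the members, the levels were 4914 and 4936 TPM in NC, against 4256 and 4112 TPM after knockdown, which is 85.0% of NC. The samples of the groups did not overlap in this sum. The order of the members was kept closely, with a Spearman rho of 0.975 between the mean levels of NC and sh-ANP32B over the 41 members, which describes these genes and is no test. PSMB4 was the highest member in both groups and PSMG4 the lowest. Levels of single subunits differed widely although the assembled core holds the same number of each. Within the core particle the mean NC level ran from 34.7 TPM for PSMA5 to 456 TPM for PSMB4, a ratio of 13.2.

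**Figure D1:**
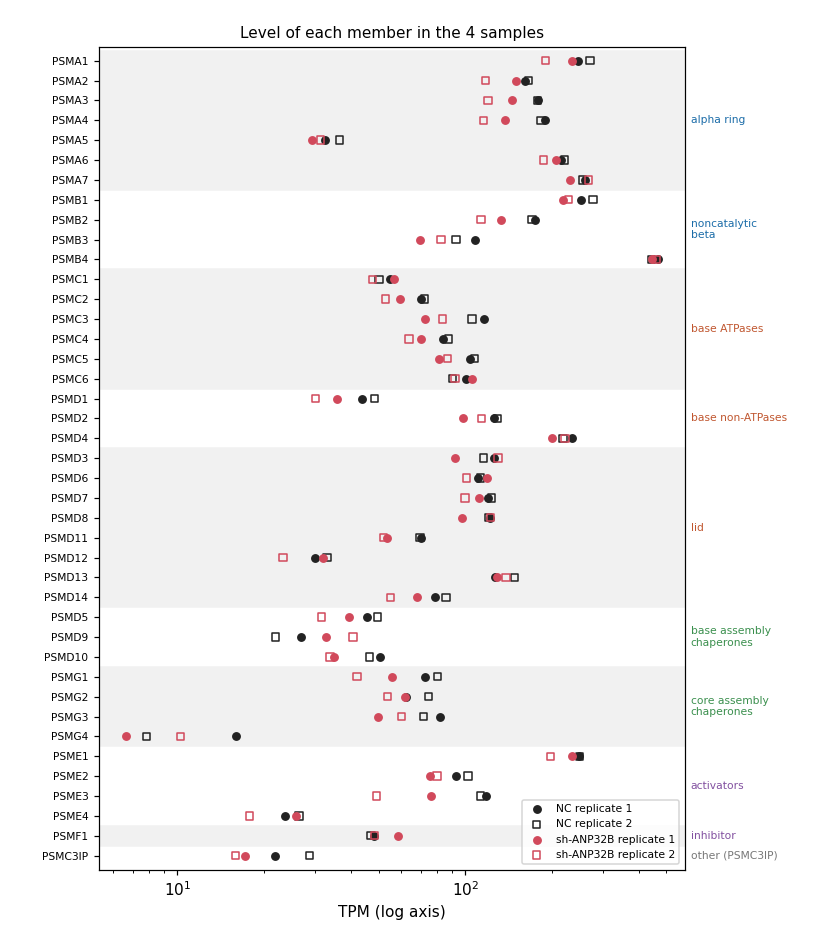
TPM of each of the 41 members on a log axis, with NC in black and sh-ANP32B in red, replicate 1 as filled circles and replicate 2 as open squares, and members grouped by class. The red symbols lie left of the black ones in 27 members and right of them in PSMD9 and PSMF1, and overlap them in 12.

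The study called genes past both an unadjusted p of 0.05 and a log2 change of 0.5 in size. Under these limits, with limma in place of DESeq2, 5 members were lower (12.2%, against 6.55% of all genes) and 1 was higher (2.44%, against 12.1%). With median-of-ratios scaling 12 members were lower, against 8.95% of all genes. With upper-quartile scaling, without mitochondrial transcripts and with quantile normalization 9 were lower each time, against 7.96%, 7.57% and 8.96% of all genes. Without NC replicate 1 there were 3 and without NC replicate 2 there were 2, against 3.84% and 3.54%. Without sh-ANP32B replicate 1 there were 10 and without sh-ANP32B replicate 2 there were 5, against 8.79% and 8.1%. The 5 lower members in the reported fit were PSME3, PSMG1, PSMC3IP, PSMA4 and PSMC3, and the higher one was PSMD9. Apart from PSMC3IP they came from different parts of the machinery: an alternative cap, a chaperone of the alpha ring, a gate subunit, an ATPase of the base and a chaperone of the base. PSMB2, with a log2 change of -0.49 (SE 0.136), lay just outside the limits, as PSMC3 lay just inside at -0.50 (SE 0.141).

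Among the activators, PSME3 stood lowest of all members. It encodes the nuclear cap that lets the core degrade some proteins without ubiquitin, among them the cell cycle inhibitor CDKN1A, and its gene spans 42824385 to 42843760 of chromosome 17 (hg38, plus strand). The level was 118 and 113 TPM across the NC samples versus 75.9 and 49.1 TPM across those of sh-ANP32B. Every sh-ANP32B value was below every NC value, but the sh-ANP32B samples also differed from each other by more than those of NC. Mean levels were 116 ± 3.97 TPM and, after knockdown, 62.5 ± 19.0 TPM (SD over 2 samples), or 54.1% of NC. The log2 change was -0.91 (SE 0.212; adjusted p by limma 0.0692). Without sh-ANP32B replicate 1 it was -1.22 (limma adjusted p 0.000221) and without replicate 2 it was -0.60 (limma adjusted p 0.00433). With the replicate number as a block the limma adjusted p was 0.00159. That fit also took the limma adjusted p of ANP32B from 0.00516 to 9.4e-42 at the same log2 change of -3.04. Its p-values therefore cannot be set beside those of the reported fit. Without NC replicate 1, without NC replicate 2 and without the abundance trend PSME3 was not called, with limma adjusted p of 0.163, 0.122 and 0.156. PSME3 overlaps BECN1 on the opposite strand. BECN1 had 46.0 to 52.9 TPM in the 4 samples, and use of strand in the counting is not given in the sources used here.

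The other activators were less far below NC. PSME1 and PSME2 form the cap that interferon induces and that favours antigen peptides. PSME1 had 248.8 and 249.9 TPM in NC, against 235 and 198 TPM after knockdown, with a log2 change of -0.21 (SE 0.135; adjusted p by limma 0.402). PSME2 had 92.9 and 102 TPM across the NC samples versus 75.6 and 79.9 TPM across those of sh-ANP32B, with a log2 change of -0.32 (SE 0.133; adjusted p by limma 0.205). For both partners the groups did not overlap, and neither difference passed the test. Without sh-ANP32B replicate 1 the log2 change of PSME1 was -0.33 (limma adjusted p 0.0198), and without replicate 2 it was -0.084. PSME4, a large cap linked to the breakdown of acetylated histones, had 23.6 and 26.5 TPM in NC, against 25.9 and 17.8 TPM after knockdown, so its groups overlapped (log2 change -0.21, 95% interval -0.72 to 0.30). Without sh-ANP32B replicate 2 its log2 change was 0.05, and without replicate 1 it was -0.47. The inhibitor PSMF1, also called PI31, had 48.2 and 47.1 TPM across the NC samples versus 58.6 and 48.5 TPM across those of sh-ANP32B. Its groups did not overlap, but the log2 change of 0.16 (SE 0.154; adjusted p by limma 0.583) was about as large as its error. It was 0.026 without sh-ANP32B replicate 1 and 0.29 without replicate 2.

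The chaperones that assemble the proteasome had the lowest median log2 change of the classes, -0.41 over 7 genes, with 6 negative. Without sh-ANP32B replicate 1 their median was -0.34, above the -0.40 of the activators. PSMG1 forms a dimer with PSMG2 that guides the alpha ring, and is encoded at 39174769 to 39183488 of chromosome 21 (minus strand). The PSMG1 level was 72.3 and 79.97 TPM in NC, against 55.7 and 42.1 TPM after knockdown. The groups did not overlap, and the mean was 76.1 ± 5.44 TPM against 48.9 ± 9.62 TPM (SD over 2 samples), or 64.2% of NC. The log2 change was -0.64 (SE 0.175; adjusted p by limma 0.0938). Its partner PSMG2 had 62.5 and 74.4 TPM across the NC samples versus 61.9 and 53.7 TPM across those of sh-ANP32B, with a log2 change of -0.24 (SE 0.158; adjusted p by limma 0.407). The sh-ANP32B samples of PSMG2 were both below NC, the higher by less than 1 TPM. Its log2 change ranged from -0.36 without NC replicate 1 to -0.12 without NC replicate 2.

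The second chaperone pair of the alpha ring, PSMG3 and PSMG4, differed in how its replicates agreed. PSMG3 had 81.5 and 71.6 TPM in NC, against 49.95 and 60.2 TPM after knockdown, with a log2 change of -0.47 (SE 0.157; adjusted p by limma 0.139) and no overlap. PSMG4, the lowest member, had 16.1 and 7.84 TPM across the NC samples versus 6.62 and 10.3 TPM across those of sh-ANP32B. Its groups overlapped, and on the log2 scale the NC replicates differed from each other more than in any other member. The log2 change of PSMG4 was -0.41 (95% interval -1.26 to 0.45), and it was 0.07 without NC replicate 1.

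The 3 chaperones of the base did not share a direction. PSMD9 binds the ATPases PSMC3 and PSMC6 during assembly and is encoded at 121888732 to 121918297 of chromosome 12 (plus strand). It had 26.8 and 21.9 TPM in NC, against 32.7 and 40.7 TPM after knockdown, which is 151% of NC. PSMD9 was higher in both sh-ANP32B samples, with a log2 change of 0.57 (SE 0.186; adjusted p by limma 0.131), and no other member had a log2 change over 0.2. PSMD10, known as the oncoprotein gankyrin and a partner of PSMC4, had 50.5 and 46.4 TPM across the NC samples versus 34.98 and 33.9 TPM across those of sh-ANP32B. Its log2 change was -0.48 (SE 0.144; adjusted p by limma 0.113). PSMD5, a partner of PSMC2, had 45.5 and 49.5 TPM in NC, against 39.6 and 31.7 TPM after knockdown, with a log2 change of -0.41 (SE 0.166; adjusted p by limma 0.200). Both lay below NC without overlap. Without sh-ANP32B replicate 2 the log2 change of PSMD5 was -0.26. PSMD5 shares its locus with the opposite-strand pseudogene CUTALP, which had 28.3 to 33.9 TPM in NC and 48.8 to 54.6 TPM in sh-ANP32B.

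All 11 core members had a negative log2 change, against 42.1% of all genes, with a median of -0.29, and 9 lay below NC without overlap, against 21.4% of all genes. PSMA4, whose tail is central to the closed gate, was the lowest of them. Its gene spans 78540405 to 78552417 of chromosome 15 (plus strand). The level was 190.0 and 183 TPM across the NC samples versus 137 and 116 TPM across those of sh-ANP32B. The mean was 187 ± 4.81 TPM against 126 ± 14.8 TPM (SD over 2 samples), or 67.8% of NC. The log2 change was -0.56 (SE 0.137; adjusted p by limma 0.0740). At the other end of the alpha ring, PSMA7 had 261 and 256 TPM in NC, against 231 and 268 TPM after knockdown (log2 change -0.05, 95% interval -0.36 to 0.26). Its groups overlapped, and its log2 change was 0.05 without sh-ANP32B replicate 1. The other 5 alpha subunits lay between, from -0.43 for PSMA3 to -0.14 for PSMA6, and none of them overlapped between groups. PSMA3 overlaps the antisense transcript PSMA3-AS1, which had 45.3 and 49.7 TPM with NC and 63.1 and 50.6 TPM with sh-ANP32B.

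The noncatalytic beta subunits spanned a similar range. PSMB2 had 174 and 171 TPM across the NC samples versus 133 and 113 TPM across those of sh-ANP32B, with a limma adjusted p of 0.0991. PSMB4, the most abundant member, had 468 and 444 TPM in NC, against 446 and 461 TPM after knockdown. Its groups overlapped, with a log2 change of -0.01 and a 95% interval from -0.29 to 0.27. Between them, PSMB3 and PSMB1 had log2 changes of -0.40 and -0.24. The summed level of the 11 core members was 2287 and 2297 TPM across the NC samples versus 2002 and 1915 TPM across those of sh-ANP32B.

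The regulatory particle had the highest median of the 3 main classes, -0.21 over 17 genes, with 16 negative and 9 below NC without overlap, against 42.1% and 21.4% of all genes. In its ATPase ring, 4 of 6 members were lower at an unadjusted p under 0.05, against 8.72% of all genes, and the other two had log2 changes close to 0; differences between ring members were not tested. PSMC3, whose tail docks into the alpha ring and opens the gate, lies on chromosome 11 from 47418769 to 47426473 on the minus strand. It had 116 and 106 TPM in NC, against 72.5 and 83.5 TPM after knockdown, or 70.5% of NC, with a limma adjusted p of 0.101. PSMC4, PSMC2 and PSMC5 had log2 changes of -0.35, -0.34 and -0.33. PSMC6 had 101 and 90.5 TPM across the NC samples versus 106 and 92.2 TPM across those of sh-ANP32B, a log2 change of 0.05 (SE 0.142) that was between -0.05 and -0.0026 under 4 other scalings. PSMC1 had a log2 change of -0.01 (SE 0.153). The groups of PSMC6 and PSMC1 overlapped.

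Among the other base subunits, PSMD1, the scaffold that carries the ubiquitin receptor ADRM1, was lowest. PSMD1 had 43.7 and 48.5 TPM in NC, against 36.0 and 30.2 TPM after knockdown, with a log2 change of -0.47 (SE 0.161; adjusted p by limma 0.146). PSMD2, the scaffold for shuttle factors, had a log2 change of -0.27 (SE 0.135). PSMD4, itself a ubiquitin receptor, had 235 and 218 TPM across the NC samples versus 199 and 222 TPM across those of sh-ANP32B (log2 change -0.11, 95% interval -0.41 to 0.20). The groups overlapped in PSMD4 and not in the scaffolds. The log2 change of PSMD4 was -0.029 without sh-ANP32B replicate 1 and -0.18 without replicate 2.

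In the lid, 5 of 8 members overlapped between groups, against 7637 of the 16817 genes tested. The other 3 lay below NC without overlap, against 21.4% of all genes. The median log2 change was -0.17, the nearest to 0 of the subunit classes, against 0.08 over all genes. PSMD14, the enzyme that cuts ubiquitin chains from the substrate, had 78.4 and 85.8 TPM in NC, against 68.2 and 55.01 TPM after knockdown, with a log2 change of -0.42 (SE 0.158; adjusted p by limma 0.178). PSMD11, which clamps the lid to the core, had 70.4 and 69.7 TPM across the NC samples versus 53.6 and 51.96 TPM across those of sh-ANP32B (log2 change -0.40, SE 0.132, limma adjusted p 0.134). These were the lowest lid genes and both lay apart from NC. Without sh-ANP32B replicate 2 the log2 change of PSMD14 was -0.26. PSMD6 was nearest to 0, with 111 and 113 TPM in NC, against 119 and 101 TPM after knockdown, so that the NC samples lay between those of sh-ANP32B (log2 change -0.03, SE 0.140). Its log2 change was 0.09 without sh-ANP32B replicate 2. PSMD3, PSMD7, PSMD8, PSMD12 and PSMD13 had log2 changes from -0.21 to -0.03.

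The genes whose promoter stretches are printed above had log2 changes from -0.64 for PSMG1 to -0.14 for PSMD3. The members as a whole ranged from -0.91 to 0.57. PSMB3, a beta subunit, had 108 and 92.9 TPM in NC, against 69.9 and 82.5 TPM after knockdown, a log2 change of -0.40 (SE 0.154). The lid subunit PSMD3 had 125 and 116 TPM in NC, against 92.05 and 130.01 TPM after knockdown, a log2 change of -0.14 (SE 0.185) that was 0.11 without sh-ANP32B replicate 1 and -0.38 without replicate 2 (limma adjusted p 0.0272). The lid subunit PSMD12 had 30.1 and 33.1 TPM in NC, against 32.2 and 23.3 TPM after knockdown, a log2 change of -0.20 (SE 0.196) that was -0.42 without sh-ANP32B replicate 1 and 0.03 without replicate 2. PSMB3 and PSMG1 lay below NC in both samples, while in PSMD3 and PSMD12 the sh-ANP32B samples differed from each other by more than their groups did.

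**Figure D2:**
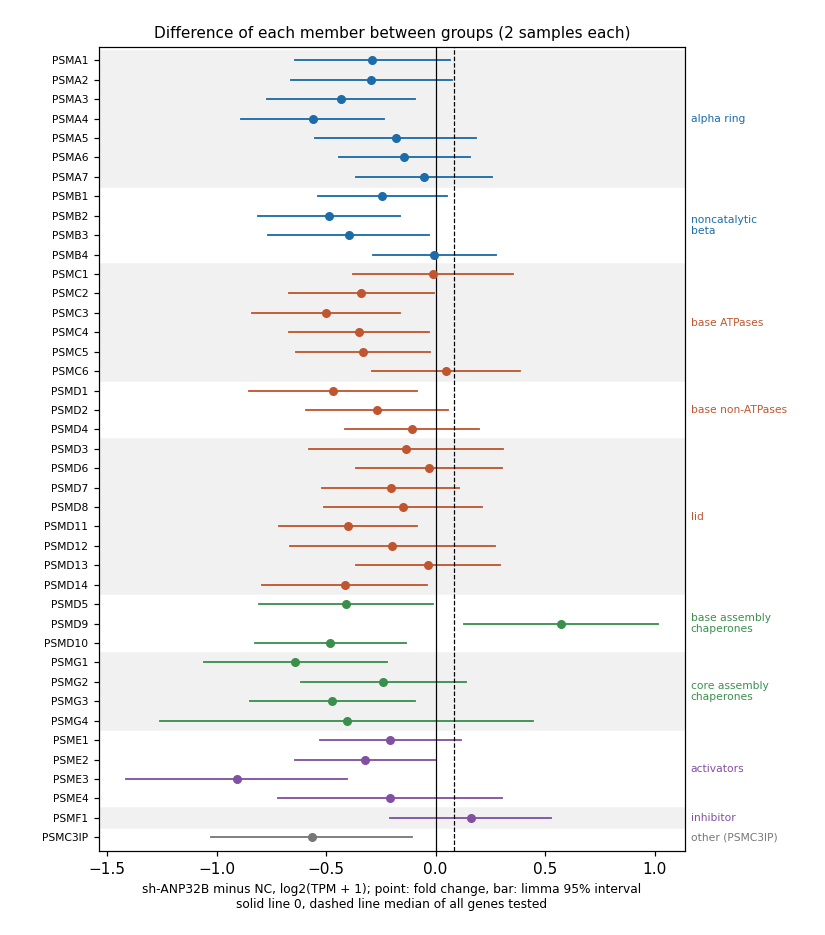
Log2 fold change of each member, sh-ANP32B minus NC on the log2(TPM + 1) scale, with its limma 95% interval (2 samples in each group), coloured by class. Points lie left of 0 in 38 of 41 members, and the interval of PSMD9 alone lies wholly to the right of 0.

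Contrasted as classes, the medians were close together. The core particle lay 0.08 below the regulatory particle and 0.12 above the assembly chaperones on the log2 scale. With one library left out, the median log2 change ranged from -0.31 to -0.22 for the core particle. The range was -0.28 to -0.195 for the regulatory particle and -0.54 to -0.34 for the chaperones. A separate quantity is the median level of a class in each sample, in log2(TPM + 1). Its SD between replicates was 0.162 for the core particle, 0.0483 for the regulatory particle and 0.0252 for the chaperones. This SD describes levels and is not the error of the median log2 changes. The order of core and regulatory particle was not stable: without sh-ANP32B replicate 1 the medians were -0.28 and -0.28, and without replicate 2 they were -0.23 and -0.26. In summed level the core particle had 1.33 and 1.34 times the regulatory particle in NC, and 1.35 and 1.26 times in sh-ANP32B, so the groups overlapped in this ratio. The 7 chaperones together had 355 and 352 TPM across the NC samples versus 281 and 273 TPM across those of sh-ANP32B, or 78.4% of NC, against 85.5% for the core and 87.2% for the regulatory particle. These shares were not tested against each other.

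PSMC3IP, the recombination factor, lies on chromosome 17 from 42572310 to 42577831 on the minus strand. It had 21.8 and 28.7 TPM in NC, against 17.2 and 15.96 TPM after knockdown, or 65.7% of NC, with a log2 change of -0.57 (SE 0.192; adjusted p by limma 0.144). The groups did not overlap. It overlaps MLX on the opposite strand, which had 58.9 to 61.2 TPM in NC and 68.3 to 80.7 TPM in sh-ANP32B. Without NC replicate 2 its log2 change was -0.38. With PSMC3IP left out, 37 of 40 members were negative and their median was -0.28.

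Other genes of the same machinery were read from lists written with earlier results of these data known. Of the 6 catalytic subunits, 1 had a limma adjusted p under 0.05, against 3.32% of all genes (1.18% lower). It was PSMB5, the chymotrypsin-like protease and the target of bortezomib (NC 77.9 and 80.5 TPM, sh-ANP32B 18.6 and 22.4 TPM). Its log2 change was -1.91 (95% interval -2.28 to -1.53, limma adjusted p 0.0154). The interval of PSMA4, the most negative noncatalytic core member, ran from -0.89 to -0.23. PSMB6 and PSMB7, the other proteases of the standard core, had log2 changes of -0.38 and -0.14. PSMB8, PSMB9 and PSMB10 had log2 changes of -0.43, -1.31 and 0.18. In these and in PSMB7 the groups overlapped, and PSMB9 had 0.15 and 7.68 TPM in the sh-ANP32B samples. Among 12 partners of the proteasome, 6 were lower, against 42.1% of all genes, and 6 higher. In this list 1 gene passed the test, against 3.32% of all genes. That gene was SEM1, the smallest lid subunit, which its symbol keeps out of the rule. SEM1 had 47.7 and 42.8 TPM across the NC samples versus 22.04 and 18.2 TPM across those of sh-ANP32B, with a log2 change of -1.13 (SE 0.168; adjusted p by limma 0.0351). All 8 lid members of the rule lay nearer to 0. Without overlap, 3 partners were higher, against 33.2% of all genes, and 1 (SEM1) was lower, against 21.4%. The 3 were ZFAND5, TXNL1 and AKIRIN2, with log2 changes of 0.45, 0.29 and 0.25 (limma adjusted p 0.102, 0.376 and 0.380). In the other 8 the groups overlapped. Among these, the chaperone POMP, which completes the core, the receptor ADRM1 and the deubiquitinase USP14 had log2 changes of -0.16, 0.06 and -0.01.

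Regulators of proteasome genes were read from a list of 10 genes of the NRF1 pathway. Of these, 8 had a positive and 2 a negative log2 change, against 42.1% negative over all genes. The test was passed by 1 of them, against 3.32% of all genes. NFE2L1 itself had 85.0 and 83.9 TPM in NC, against 76.3 and 97.6 TPM after knockdown, a log2 change of 0.03 (95% interval -0.35 to 0.41). The 1 gene of the list that passed the test was MAFF, a small MAF partner of NFE2L1 and NFE2L2, which had 13.6 and 16.3 TPM across the NC samples versus 32.4 and 35.2 TPM across those of sh-ANP32B (log2 change 1.13, SE 0.173, limma adjusted p 0.0362). NFE2L2 had a log2 change of 0.41 (limma adjusted p 0.212). Members whose promoter holds the response element letters had a median log2 change of -0.33 (14 genes), and members whose promoter window lacks them had -0.29 (23 genes). The difference was not tested. In the list of ubiquitin genes and shuttle factors, 0 of 14 had a limma adjusted p under 0.05, against 3.32% of all genes. Their median log2 change was -0.04. At an unadjusted limma p under 0.05, 1 was lower, against 8.72% of all genes (UBB, a polyubiquitin gene, log2 change -0.31). At the other end, NPLOC4, a cofactor of the segregase VCP, had a log2 change of 0.27 (limma adjusted p 0.290).

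**Figure D3:**
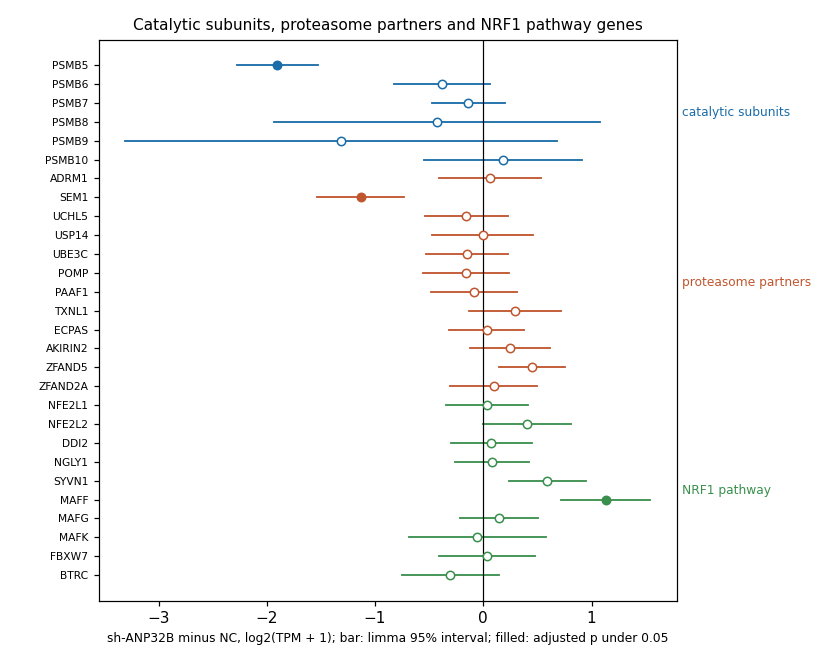
Log2 fold changes of catalytic subunits, proteasome partners and NRF1 pathway genes, sh-ANP32B minus NC, with limma 95% intervals and filled points for an adjusted p under 0.05. Filled points are PSMB5 at -1.91, SEM1 at -1.13 and MAFF at 1.13.

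The replicates of sh-ANP32B differed from each other with the GC content of the transcript, in the members as over all genes. Over the 41 members, the difference between sh-ANP32B replicates 2 and 1 had a Spearman rho of 0.598 with the GC content of the longest transcript, against 0.577 over 15427 genes. The difference between NC replicates 2 and 1 had a rho of -0.408 over the members, against -0.206 over the 15427 genes. These values describe 4 libraries and carry no test. Of 18 members with a GC content under 45%, 16 were lower in replicate 2 than in replicate 1, with a median log2 difference of -0.24. Of the 23 members at 45% or more, 14 were higher in replicate 2, with a median of 0.09. The log2 change between groups had a rho of 0.0301 with GC content. PSMD14, PSMA3 and PSMD12 have GC contents of 31.96%, 36.7% and 37.5%, and PSMG3 and PSMC3 of 59.4% and 56.2%.

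**Figure D4:**
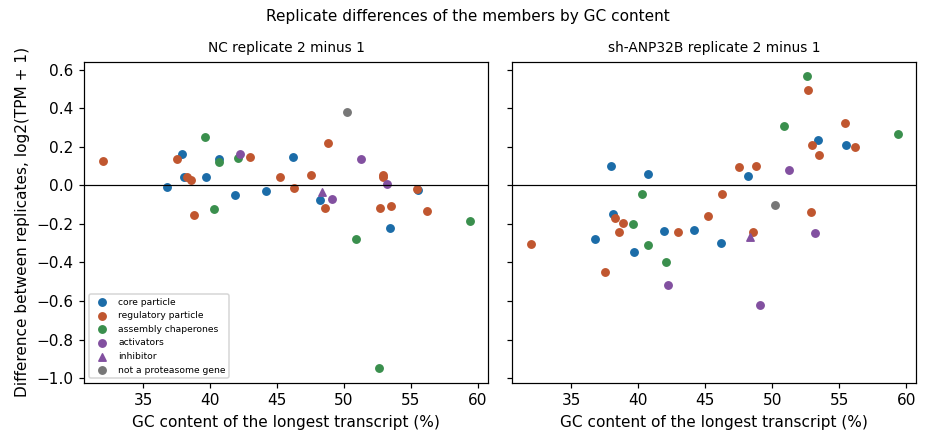
Log2 difference between replicates 2 and 1 of NC (left) and sh-ANP32B (right) against the GC content of each member's longest transcript in percent, with 1 point for each of the 41 members, coloured by class. In sh-ANP32B the points rise with GC content (rho 0.598), and in NC they tend downward (rho -0.408).

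The number of members called depended on how this spread was handled. After GC correction of each sample, 12 members (29.3%) had a limma adjusted p under 0.05, 11 lower and PSMD9 higher, against 17.9% of all genes (6.59% lower). Without sh-ANP32B replicate 1 there were 18 (43.9%), 17 lower and PSMD9 higher, against 24.3% of all genes (9.68% lower). Without sh-ANP32B replicate 2 there were 15 (36.6%), all lower, against 20.7% of all genes (8.47% lower). With the replicate number as a block there was 1, PSME3, against 8.76% of all genes (2.92% lower and 5.84% higher). The fits that leave out a sample take the lone sh-ANP32B sample to vary as the NC pair does. The genes called after GC correction and also without either sh-ANP32B replicate were PSMA3, PSMA4, PSMB2, PSMC3, PSMD11, PSME3 and PSMG1, a list read off after the values were seen. Under the block only PSME3 of these was called. Leaving out one library moved the log2 change by over 1.5 times in 25 of 41 members. Without NC replicate 1 or NC replicate 2, 0 members were called, and 4 and 2 had an unadjusted p under 0.05.

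Markers of proliferation and of myeloid maturation also differed between the groups. All 8 proliferation markers were lower, against 42.1% of all genes, and 5 had a limma adjusted p under 0.05, against 1.18% called lower. Their summed level was 1907 and 1953 TPM in NC, against 1185 and 1058 TPM after knockdown. Of 8 monocyte and granulocyte markers 6 were tested, and all 6 were higher, against 9741 of the 16817 genes tested. Of these 6, 2 had a limma adjusted p under 0.05 (LYZ and CSF3R), against 2.14% of all genes called higher. The summed level of the 6 was 768 and 791 TPM across the NC samples versus 1519 and 1525 TPM across those of sh-ANP32B. CD14 and FCGR3A were not analysed here. The part of these shifts, of GC content and of the mitochondrial share in the lower levels of the members was not tested.

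**Figure D5:**
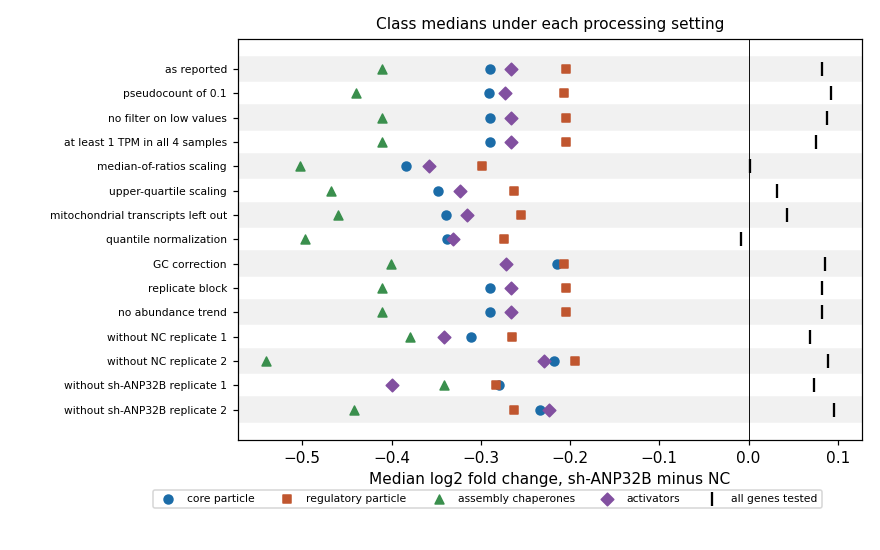
Median log2 change, sh-ANP32B minus NC, of the core particle (11 genes), regulatory particle (17), assembly chaperones (7) and activators (4), with the median of all genes tested as a bar, under the reported setting and 14 alternatives. Each class median is negative throughout, between -0.54 and -0.20, and the all-gene median lies between -0.01 and 0.10.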

How the data were processed

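RNA was sequenced from 2 NC and 2 sh-ANP32B samples, grouped by their titles. Per the labels, TruSeq libraries were made from total RNA and the reads were aligned to hg38 with HISAT2 2.0.5. The deposited values are TPM, a unit identified from the values (decimals, with sums from 997812 to 998314). The program that made them, its annotation and any filter are not given in the sources used here. TPM keeps no depth, so no counting interval or floor was computed, and the number of samples limits the precision.

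Of 18567 gene IDs, 16986 were found in GENCODE v44. A gene needed 1 TPM or more in 2 samples, and was compared on log2(TPM + 1) by limma 3.58.1 with an abundance trend (R 4.3.3), two-sided, with Benjamini-Hochberg adjustment over all 16817 genes. The test was checked on simulated data with independent noise for each gene, where 79.4% of log2 changes of size 1 and 100% of size 2 were recovered. The simulation held no GC-linked shift between replicates and no changes smaller than 1, the range of all members. It therefore cannot show how many changes of the members' size the test would find. DESeq2 was used by the authors but needs counts. The members and lists were chosen with earlier results of these data known. The rule for named genes took members past the study's criterion and the lowest and highest log2 fold change of each class, with sample values for these and for PSMC3IP, PSMF1 and the PSME and PSMG genes. Members described outside it (such as PSMA3, PSMB3, PSMD3, PSMD5, PSMD11 and PSMD12) were chosen after their values were seen. Alternatives were other scalings, filters, a pseudocount of 0.1, GC correction by loess, a replicate block, no trend, and leaving out each sample. Figures were drawn with matplotlib 3.10.9.

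The 7 pseudogene rows named after PSM genes reached at most 4.75 TPM. A listed gene overlaps 18 members on the opposite strand and 5 on the same strand, so their levels carry some uncertainty from shared reads. On the same strand, PSMC2 (70.0 and 72.3 TPM in NC) overlaps PMPCB (63.3 and 68.6 TPM in NC).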

Additional observations from a re-analysis of the deposited data

How the results depend on the processing

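ANP32B lost its call in 1 of 14 alternatives, without the abundance trend (-3.04, limma adjusted p 0.0929). In that limma fit 0 genes were called, and 9 members had an unadjusted p under 0.05. Over all genes, 559 calls as reported became 2765 after GC correction, 1473 under the replicate block and 273 to 4079 with one replicate left out. Members called, 0 as reported, were 12 (11 lower) with GC correction, 1 (lower, PSME3) with the replicate block, and 0 to 18 (0 to 17 lower) with one replicate left out. The deviations of samples with one number had a Pearson r of -0.0925 over genes, so the block marks a shared number only. The 5 lower members past the study's criterion became 12 with median-of-ratios scaling, 9 with upper-quartile scaling, 9 without mitochondrial transcripts, 9 with quantile normalization, and 2 to 10 with one replicate left out. The 1 higher member became 0 with median-of-ratios scaling and was 0 to 1 with one replicate left out. The cause was not tested. Between 34 and 39 members were negative under every alternative.

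Class medians stayed negative under all 14 alternatives. In the same 4 scalings and in that order, the regulatory particle (-0.21 as reported) had -0.30, -0.26, -0.25 and -0.27, and the assembly chaperones (-0.41) had -0.50, -0.47, -0.46 and -0.50. The chaperones had -0.44 with a pseudocount of 0.1. With one replicate left out, the regulatory particle ranged from -0.28 to -0.195 and the chaperones from -0.54 to -0.34.

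Of 308 values for 22 named members, 265 kept direction and call, 29 became calls, 0 lost one and 14 changed sign, all in 6 members. Over all 41 members, 11 changed sign under at least 1 alternative: these 6 and PSMC1, PSMD3, PSMD8, PSMD12 and PSMD13. PSMC6 (0.05 as reported) turned to -0.046, -0.011, -0.0026 and -0.031 in the 4 scalings, and PSMB4 and PSMD6 to 0.037 and 0.040 with GC correction. With one replicate left out, PSMC6 ranged from -0.051 to 0.145, PSMB4 from -0.044 to 0.030, PSMD6 from -0.153 to 0.089, PSMA7 from -0.159 to 0.052, PSME4 from -0.469 to 0.049 and PSMG4 from -0.88 to 0.068. TPM keeps no depth, so the part of depth in these values could not be assessed.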
